A study of Drosophila melanogaster with 4 samples.

Results

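Regions of histone H3 enrichment (clusters) were examined in the 2 Mb next to the telomere of the chromosome arms 2L, 3L, 3R and X of *Drosophila melanogaster*. Clusters were taken by position alone, by the midpoint of each cluster in the series-wide list of chromatin immunoprecipitation and sequencing (ChIP-seq). The windows were 2L 1-2000000, 3L 1-2000000, X 1-2000000 and 3R 25905054-27905053 on FlyBase release 5, in which 3R runs towards its telomere and the other arms start at theirs. They held 1471 of the 18424 clusters of that list, namely 387 on 2L, 364 on 3L, 403 on 3R and 317 on X. The same windows held 368 of 3717 clusters in replicate 1 and 225 of 2198 in replicate 2.

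The embryos were wild-type Oregon-R (the strain Oregon-R-modENCODE), collected at 14 to 16 h of development, with no treatment or transgene. The series comprised 2 ChIP libraries made with the antibody named H3 antibody3, and 2 input libraries of genomic DNA, and the input of a given number was used for the ChIP replicate of that number. Chromatin came from whole embryos, so all cell types of that stage are mixed in each list. The values were positions, lengths and 1 score per cluster in 3 lists (series-wide, replicate 1 and replicate 2), with unknown read numbers per library. Whether the ChIP replicates are separate collections of embryos is not in the labels, so any spread between them may be technical.

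H3 is a core protein of the nucleosome, the unit in which DNA is wrapped in the nucleus, and an antibody against it recovers nucleosomes whatever their modification. Telomeres of *Drosophila* carry no short telomerase repeats. They are kept up by the retrotransposons HeT-A, TART and TAHRE, which insert at chromosome ends, and telomere-associated satellite repeats lie inward of these arrays and silence genes placed in them. Gene-bearing euchromatin begins inward of those repeats. Among protein-coding genes in their order from the tip (RefSeq gene table of release 6, names only) 2L begins with l(2)gl, a tumour suppressor of cell polarity, and 3L with mthl8, followed further in by E(bx), which encodes the large subunit of the nucleosome remodelling factor NURF. The outer part of X carries y, a pigmentation gene, beside the proneural genes ac, sc, l(1)sc and ase, with elav, which encodes a neuronal RNA-binding protein, further in. Genes near the tip of 3R include mod, Acf, a subunit of chromatin assembly complexes, and ttk, a transcriptional repressor. No annotation of release 5 was used here, so no cluster was assigned to a gene, and no sequence of a cluster is shown.

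The telomeric 2 Mb was rich in clusters on all 4 arms, and the outermost 100 kb of the 4 arms together was poor in them. Against the arm interior, which leaves out 2 Mb at both ends of an arm, the telomeric windows together held 184 clusters per Mb against 149 in the series-wide list, a ratio of 1.23 (exact 95% interval 1.17 to 1.30). Replicate 1 gave 46.0 against 29.0 clusters per Mb, a ratio of 1.59 (interval 1.42 to 1.77). Replicate 2 gave 28.1 against 16.9, a ratio of 1.67 (interval 1.44 to 1.92). The replicate mean was 1.63 ± 0.059 (SD, n = 2). This spread of 2 lists is narrower than the interval of either and does not measure the uncertainty of the excess. Clusters covered 33.6% of the windows against 24.2% of the interior series-wide, 7.68% against 4.71% in replicate 1 and 4.52% against 2.67% in replicate 2.

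These intervals take clusters as independent and cover counting error only, and 1 group of 2 ChIP replicates allows no test over samples. In 100-kb steps of the interior the variance of series-wide counts was 1.37 to 1.55 times their mean, so the true uncertainty is wider than the intervals. In the window steps, which include the rise from the tip, it was 1.23 to 1.51 times on 2L, 3L and 3R and 2.95 times on X. By arm in the replicates it was 1.14 to 1.43 times in the interior and 0.94 to 2.75 times in the windows. The interval of the density ratio lay above 1 on each arm in each list. The ratio on 2L was 1.33 (1.19 to 1.48) series-wide, while replicate 1 gave 1.69 and replicate 2 gave 1.59, with a replicate mean of 1.64 ± 0.065 (SD, n = 2). On 3L it was 1.22 (1.09 to 1.36), and the replicate lists had ratios of 1.5 and 1.65, averaging 1.57 ± 0.11 (SD, n = 2). The smallest ratio was that of 3R, the arm with the densest interior, at 1.18 (1.06 to 1.31), with 1.31 and 1.47 in the replicates and a mean of 1.39 ± 0.11 (SD, n = 2). On X it was 1.28 (1.14 to 1.44) in the series-wide list and larger in the replicates, at 2.17 and 2.22, a mean of 2.20 ± 0.034 (SD, n = 2).

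Set against the complete 2-Mb windows of the same arm's interior, the telomeric window ranked first on 2L, 3L and X in all 3 lists. On 2L it held 387 series-wide clusters, and the 9 interior windows held 186 to 356 (median 281). On 3L it held 364, and the 10 interior windows held 229 to 339. The X window held 317, above the 215 to 289 of 9 interior windows, and the replicates gave 91 against 23 to 56 and 60 against 16 to 38. On 3R 1 of 11 interior windows held more in the series-wide list and in replicate 1, and none in replicate 2, where the interior windows held 30 to 52 and the telomeric one 61. The window of 3R that exceeded it was the adjacent one, 2 to 4 Mb from the telomere, with 418 series-wide clusters against 403 and 108 replicate 1 clusters against 91. In replicate 2 that adjacent window held 47.

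The neighbouring 2 Mb was rich in series-wide clusters too on 2L, 3L and 3R. It held 350, 339 and 418 there, against medians of 281, 305.5 and 337 over the interior windows. On X it held 260, near the median of 250. It was the fullest interior window on 3L and 3R, but on 2L the windows at 4 to 6 Mb and 18 to 20 Mb held slightly more, 356 and 354. Against the zone 2 to 4 Mb from the telomere, the series-wide ratio was 1.08 for the 4 arms together (exact 95% interval 0.999 to 1.16), and on 3R it turned to 0.964 (0.839 to 1.11). On X it was 1.22 (1.03 to 1.44). In both replicates the adjacent window held fewer clusters than the telomeric one on 2L, 3L and X, while 3R differed between them, as above. On X it held 47 against 91 in replicate 1 and 38 against 60 in replicate 2. Against the arm interior, the series-wide ratio for the outer 1 Mb alone was 1.05 on 3L (0.89 to 1.24) and 1.11 on 3R (0.955 to 1.28). It turned to 0.970 on X (0.801 to 1.17). With neighbours within 1000 bp merged, the ratio of the whole telomeric window to the arm interior was 1.12 on 3L, 1.11 on 3R and 1.12 on X, each with an interval that includes 1.

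**Figure D1:**
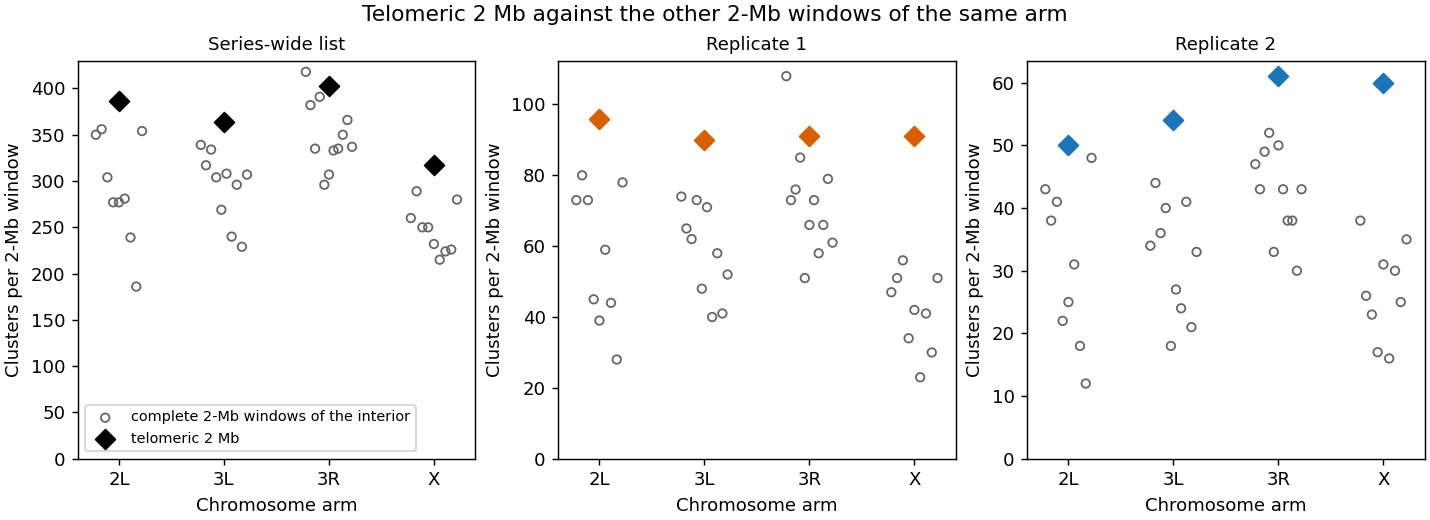
Number of clusters in the telomeric 2 Mb (diamonds) and in each complete 2-Mb window of the interior (open circles, side by side in order from the telomere) of 2L, 3L, 3R and X, with 1 panel per list and clusters per window on the vertical axis. The diamond is the highest point on 2L, 3L and X in each panel, while on 3R 1 interior window lies above it in the series-wide list (418 against 403) and in replicate 1 (108 against 91).

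Step by step, cluster number rose from the tip inward over the first 500 kb and then stayed high. The outermost 100 kb held 6 series-wide clusters on 2L, 1 on 3L, 4 on 3R and 4 on X, a mean of 3.75 ± 2.06 (SD, n = 4 arms). The means of the next 4 steps were 10.8 ± 6.85, 12.5 ± 5.97, 16.3 ± 6.90 and 18.8 ± 4.03. From 500 kb to 2000 kb the mean of a step ran between 16.5 and 25.8. For comparison, an interior step held a median of 15 clusters on 2L, 14 on 3L, 17 on 3R and 12 on X.

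At the interior density the outermost 100 kb of the 4 arms would have held 59.6 series-wide clusters, and it held 15, a ratio of 0.252 (exact 95% interval 0.141 to 0.415). Replicate 1 had 2 clusters there, both on X, against 11.6 at interior density of the 4 arms (ratio 0.172, interval 0.021 to 0.623). On X alone these 2 stood against 2.10 at interior density (ratio 0.955, interval 0.115 to 3.47), so X was not low there in replicate 1. Replicate 2 had 0 clusters against 6.74, which allows a density of up to 0.548 times that of the interior by the same exact interval. By single arm the interval lay below 1 on each arm series-wide and included 1 on each arm in both replicates. Of the 15 series-wide clusters, 2 overlapped a cluster of replicate 1, 0 overlapped replicate 2, and 13 overlapped neither. Their median length was 1175 bp, with 1841 bp for the 4 on X, and their scores ran from 0.28 to 0.63. The lists carry no read counts, so a step with few clusters is a step with few called regions and not a measured lack of H3.

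The arms differed in how far inward the poor zone reached. On 2L the first 5 steps held 6, 11, 19, 19 and 17 clusters, and on 3R 4, 16, 15, 21 and 21, so 2L passed its interior median of 15 in the third step and 3R its median of 17 in the fourth. On 3L the steps held 1, 15, 11, 19 and 23. On X they held 4, 1, 5, 6 and 14, and the interior median of 12 was first passed in the fifth step. For the outer 500 kb as a whole the series-wide ratio to the interior was 0.989 on 2L (exact 95% interval 0.772 to 1.25), 0.925 on 3L (0.718 to 1.17) and 0.9 on 3R (0.709 to 1.13). On X it was 0.485 (0.327 to 0.695). In the replicates the interval on X included 1, with 13 clusters and a ratio of 1.24 in replicate 1 (interval 0.655 to 2.15) and 3 clusters and 0.444 in replicate 2 (0.091 to 1.31).

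The first clusters on each arm lay at different distances from its end. Nearest was X 5450-7802, of 2353 bp and score 0.49, whose outer edge lay 5.45 kb from the end and which overlapped a replicate 1 cluster of score 0.60. On 3R the outermost was 27883800-27884952, 20.1 kb from the end, with a length of 1153 bp and a score of 0.34. On 2L it was 28050-29054, 28.0 kb from the end, and on 3L 96678-97844, 96.7 kb from the end, and neither overlapped a replicate cluster. In the replicates the first cluster lay further in on 2L, 3L and 3R, at 126, 105 and 120 kb in replicate 1 and at 141, 286 and 244 kb in replicate 2. On X it lay 5.92 kb from the end in replicate 1 and 419 kb in replicate 2.

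Long stretches without a series-wide cluster also lay in the outer parts. Between neighbouring clusters, leaving out the stretch from the end to the first cluster, the longest on X was 150939-253635, of 103 kb, which exceeds the longest such gap in the X interior (90.8 kb). It overlapped the longest gap of replicate 1 in the X window, 151398-290125, of 139 kb, which is shorter than the 335 kb of the X interior in that list. In replicate 2 the longest gap of the X window lay elsewhere, at 1193734-1308445, with 115 kb against 473 kb in the interior. The longest series-wide gaps between clusters in the other windows were 34.8 kb on 2L (155221-190057), 23.2 kb on 3L (230687-253899) and 41.0 kb on 3R (27816433-27857473), and the interiors of these arms had longer ones, of 64.6, 55.5 and 49.3 kb. On 3L the 96.7 kb outside the first cluster was itself longer than any gap between clusters in that arm's interior. The 4 series-wide gaps between clusters lay between 47.6 and 254 kb from the ends of their arms. The replicates mostly differed in this. The longest gap of replicate 1 lay at 223 to 330 kb on 3L, but at 1785 to 1914 kb on 2L and 802 to 889 kb on 3R. That of replicate 2 lay at 1244 to 1413 kb on 2L, 1856 to 1957 kb on 3L and 1783 to 1908 kb on 3R. The median distance between neighbouring series-wide clusters was shorter in the windows than in the interior, at 2062 against 3189 bp on 2L, 1865 against 2913 bp on 3L, 1914 against 2532 bp on 3R and 2014 against 3753 bp on X.

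**Figure D2:**
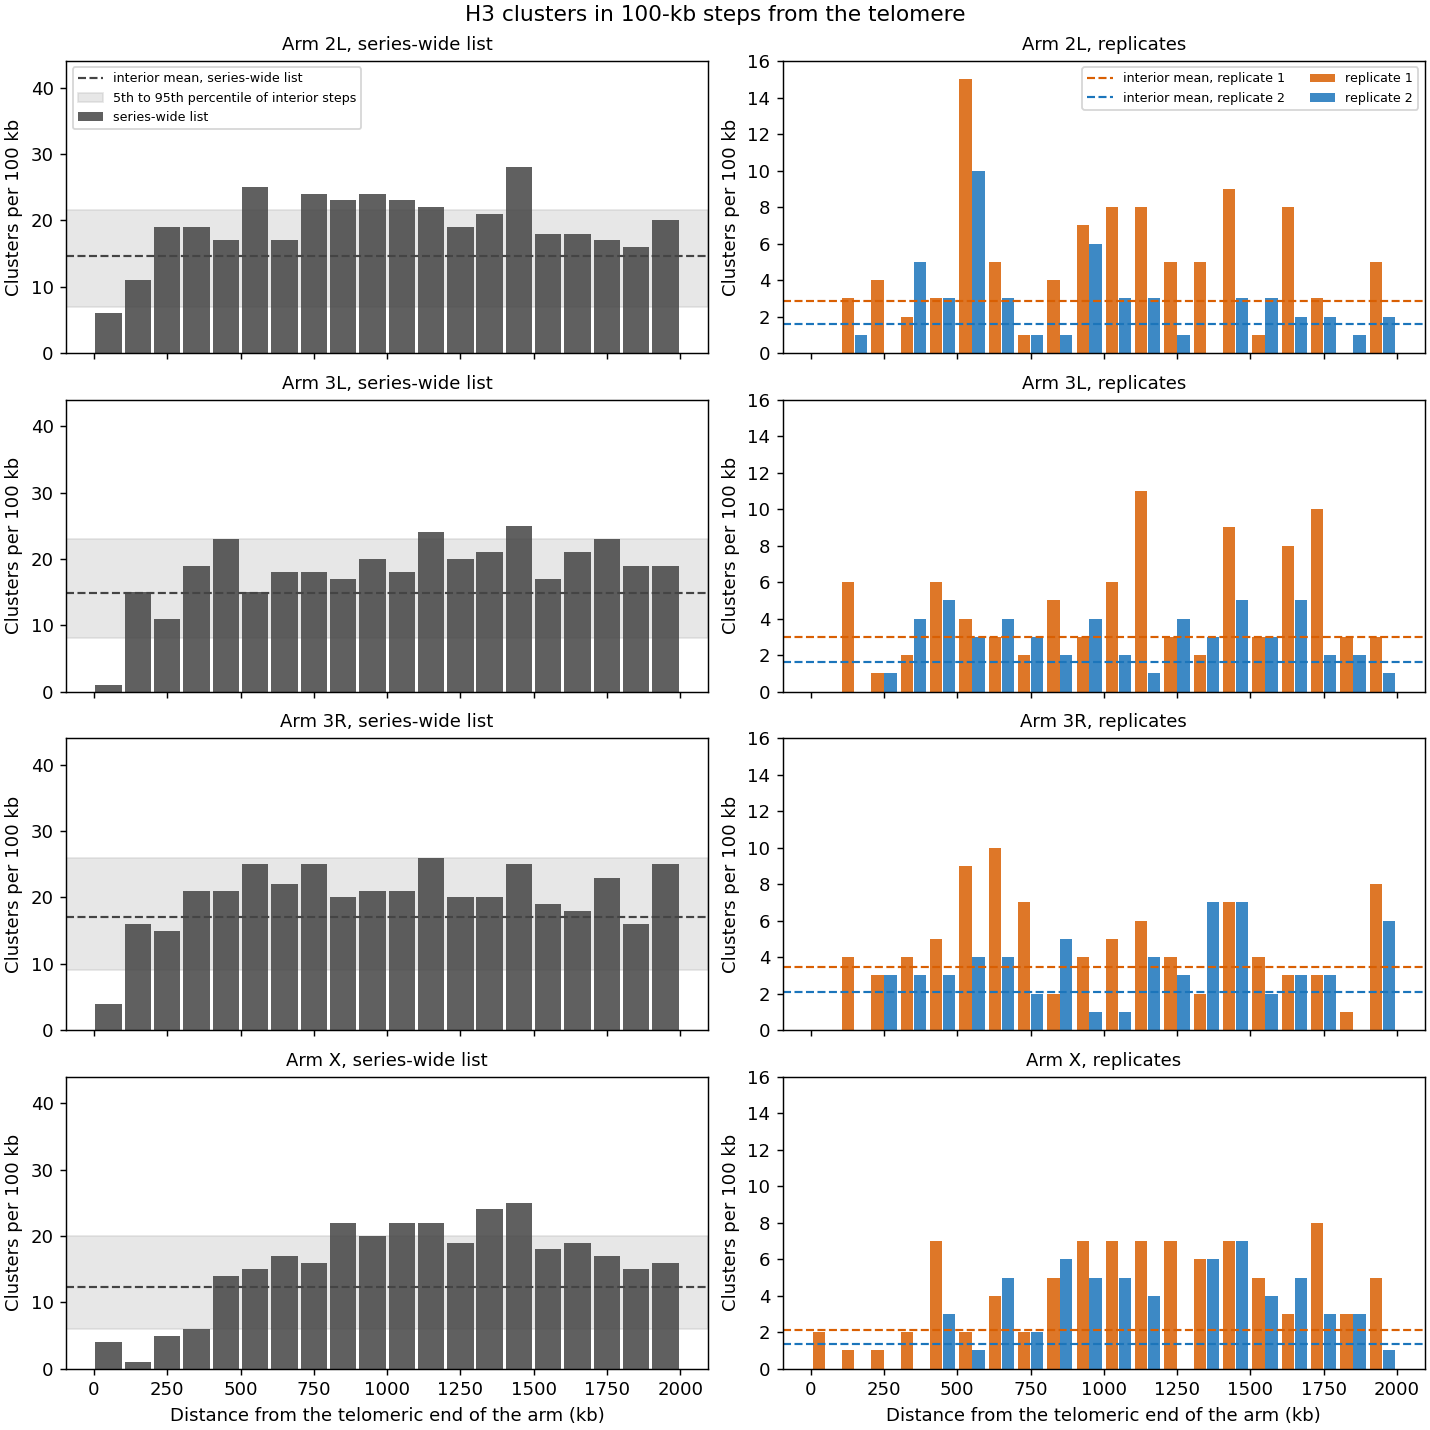
Clusters per 100 kb (vertical axis) by distance from the telomeric end in kb (horizontal axis) on 2L, 3L, 3R and X, with the series-wide list on the left and both replicates on the right. Dashed lines give the mean of the interior steps and the grey band their 5th to 95th percentile in the series-wide list. The bars of the outermost step stand at 6, 1, 4 and 4 series-wide clusters, and those of X stay at 6 or below for the first 4 steps.

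Beyond the outer 500 kb, density exceeded that of the interior in all 3 lists. The zone from 500 to 1000 kb had a ratio of 1.36 (exact 95% interval 1.22 to 1.5) in the series-wide list and a replicate mean of 1.94 ± 0.28 (SD, n = 2). The zone from 1000 to 1500 kb had the highest series-wide ratio, 1.49 (1.36 to 1.64), and a replicate mean of 2.09 ± 0.064 (SD, n = 2). From 1500 to 2000 kb the ratio was 1.25 (1.13 to 1.39), with a mean of 1.54 ± 0.051 (SD, n = 2). In the zone from 100 to 500 kb the interval of the 4 arms together included 1 in each list, with a series-wide ratio of 0.977 (0.855 to 1.11). The replicate mean was 1.16 ± 0.0099 (SD, n = 2), from 54 clusters in replicate 1 (interval 0.871 to 1.52) and 31 in replicate 2 (0.778 to 1.64). There X was low series-wide, with 26 clusters against 49.5 at interior density and a ratio of 0.526 (0.343 to 0.772), while the other arms ran from 1.07 to 1.14 with intervals that include 1.

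X reached the highest single ratios, at 1000 to 1500 kb, with 3.25 in replicate 1, 3.26 in replicate 2 and 1.81 series-wide. On 2L the replicates were highest at different distances, with 2.46 at 1000 to 1500 kb in replicate 1 and 2.68 at 500 to 1000 kb in replicate 2. On 3R the series-wide ratio was 1.32 at 500 to 1000 kb and 1.31 at 1000 to 1500 kb. On 3L it rose from 1.18 at 500 to 1000 kb to 1.45 at 1000 to 1500 kb.

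**Figure D3:**
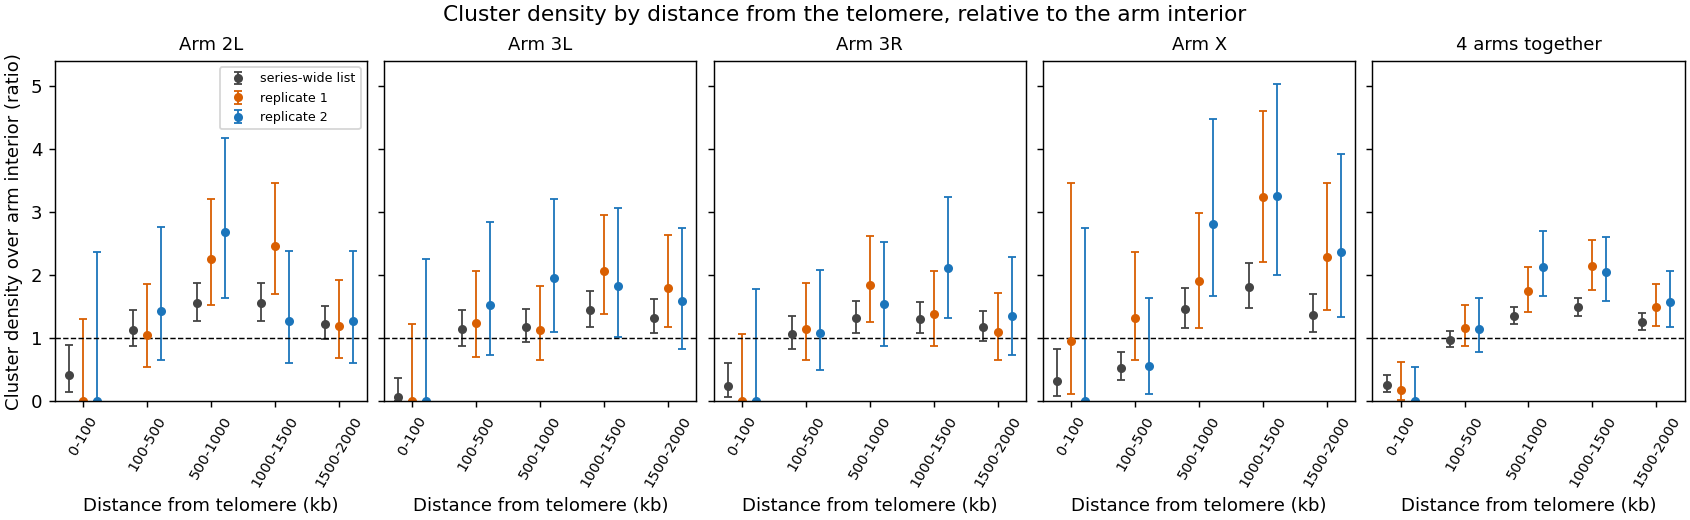
Cluster density in 5 zones by distance from the telomere (horizontal axis, kb), as a ratio to the density of the arm interior (vertical axis), for each arm and for the 4 arms together. Points are the 3 lists and bars are exact 95% intervals for counting error, and the dashed line marks a ratio of 1. For the 4 arms together the outermost zone lies at 0.252 in the series-wide list, and the zone from 1000 to 1500 kb at 1.49 series-wide, 2.14 for replicate 1 and 2.05 for replicate 2.

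Within the windows a single trend over all 20 steps described the arms unequally. Spearman's rank correlation between distance and the number of series-wide clusters was 0.559 on 3L and 0.557 on X, where numbers rose inward, and 0.126 on 2L and 0.235 on 3R (n = 20 steps of 1 list each, which share their libraries). Without the outermost step the value on 2L was -0.020. The rank correlation was 0.349 and 0.157 on 3L and 0.532 and 0.442 on X in replicates 1 and 2.

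The fullest and emptiest steps were also located. The fullest series-wide steps were 2L 1400001-1500000 with 28 clusters, 3L 1400001-1500000 with 25, X 1400001-1500000 with 25 and 3R 26705054-26805053 with 26. Clusters covered 53.4%, 51.5%, 55.8% and 48.4% of these steps in the same order. In replicate 1 they held 9, 9, 7 and 6 clusters and in replicate 2 they held 3, 5, 7 and 4, each above the mean of interior steps of the same arm and list. On 2L both replicates had their own maximum in 500001-600000, with 15 clusters in replicate 1 and 10 in replicate 2, where the series-wide list had 25. The highest interior steps of 2L held 9 and 7 clusters in replicates 1 and 2. The emptiest step was the outermost one on 2L, 3L and 3R, while on X it was 100001-200000 with 1 cluster.

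The replicates resembled each other in part over these steps. Spearman's rank correlation between their cluster numbers over the 80 steps of the 4 arms was 0.388, and by arm it was 0.447 on 2L, 0.143 on 3L, 0.345 on 3R and 0.532 on X (n = 20 each). With 0 to 15 clusters a step, counting error alone limits such values.

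On X the telomeric window departed from the low density of the rest of the arm in the replicates. In the interior X had 0.668 times the cluster density of 2L, 3L and 3R in replicate 1 (exact 95% interval 0.598 to 0.746) and 0.758 times in replicate 2 (0.658 to 0.871). In the telomeric windows the figures were 0.986 (0.769 to 1.25) and 1.09 (0.798 to 1.47). The density ratio of window to interior was thus 1.47 times as high on X as on the other arms in replicate 1 (exact conditional 95% interval 1.12 to 1.92) and 1.44 times in replicate 2 (1.02 to 2.01), a mean of 1.46 ± 0.025 (SD, n = 2). The series-wide list did not show it, with 0.824 in the windows, 0.791 in the interior and a factor of 1.04 (0.910 to 1.19). This comparison was chosen after the values were seen.

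Clusters in the telomeric windows were longer than in the interior in the series-wide list, and not on all arms in the replicates. Series-wide median lengths were 1535 against 1416 bp on 2L, 1649 against 1433 bp on 3L, 1593 against 1453 bp on 3R and 1615 against 1426 bp on X. Each of these 4 medians exceeded that of every complete 2-Mb window of the same arm's interior, of which the highest were 1530, 1509, 1537 and 1556 bp. The replicates did not share this ranking on all arms. On 3R the median was below all 11 interior windows, at 1463 bp against 1470 bp or more in replicate 1 and 1446 against 1450 bp or more in replicate 2. In replicates 1 and 2 it exceeded 9 and 8 of 9 interior windows on 2L, 7 and 7 of 10 on 3L, and 5 and 2 of 9 on X. For the 4 arms together the difference was 168 bp series-wide, while replicate 1 gave 1.00 bp and replicate 2 gave -6.00 bp, a replicate mean of -2.50 ± 4.95 bp (SD, n = 2). By arm the replicate means were 52.3 ± 11 bp on 2L, 37.8 ± 41.4 bp on 3L, -47.0 ± 9.19 bp on 3R and -34.0 ± 43.1 bp on X (SD, n = 2 each). Lengths are given without a test, since clusters of 1 list are not replicates.

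The lists had different shortest clusters, with 1301 bp in both replicates and 1001 bp series-wide. Series-wide clusters shorter than 1301 bp made up 31.4% of those in the windows (exact 95% interval 29.0 to 33.8) and 39.1% of those in the interior (38.3 to 40.0). Among those of 1301 bp or more the window median of 1871 bp exceeded the interior median of 1743 bp by 128 bp. Broad clusters of 3 kb or more were 129 of 1471 in the windows, or 8.77% (7.37 to 10.3), against 4.59% (4.23 to 4.98) in the interior. The replicates had 7 of 368 such clusters in the windows, or 1.90% (0.768 to 3.88), and 5 of 225, or 2.22% (0.725 to 5.11), against 1.18% and 0.942% in the interior, with intervals that overlap.

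The median length of the outermost step was 1150 bp over 6 clusters on 2L, the lowest of that arm's 20 steps, and the 1 cluster there on 3L measured 1167 bp. The 4 clusters of that step had a median of 1284 bp on 3R and of 1841 bp on X, the last above the X interior median of 1426 bp. The longest step medians were 2261 bp on 2L at 500 to 600 kb, 1936 bp on 3L at 1100 to 1200 kb, 1881 bp on 3R at 200 to 300 kb and 1877 bp on X at 1400 to 1500 kb. Over single clusters the rank correlation of length with distance was weak, between -0.006 and 0.133 by arm in the series-wide list.

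**Figure D4:**
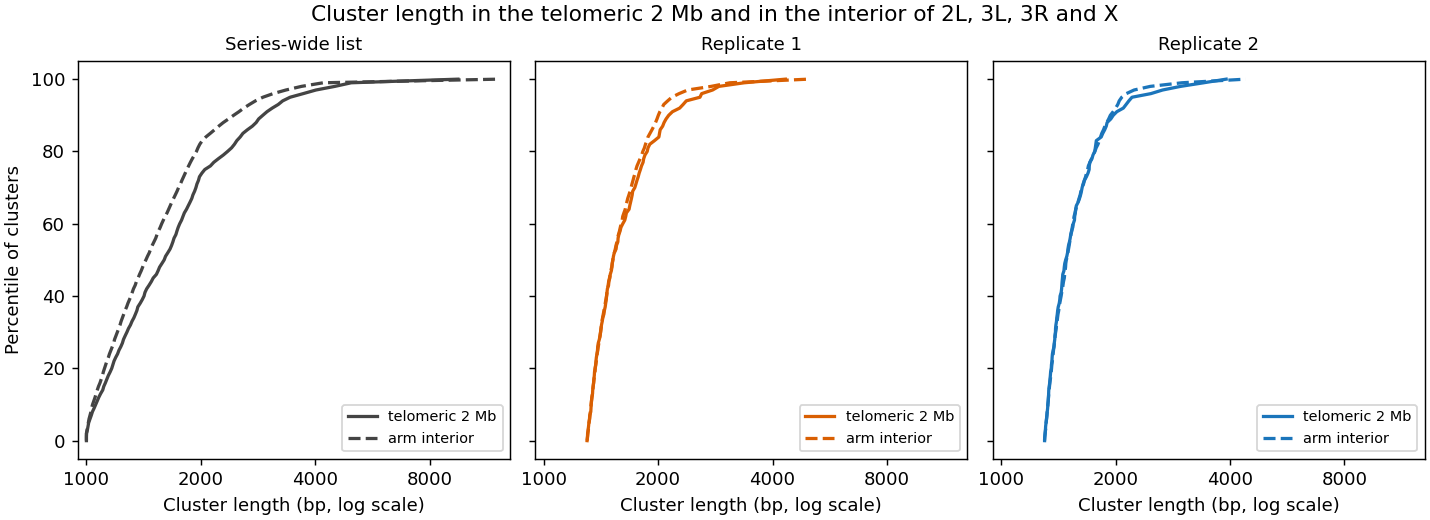
Percentile of clusters (vertical axis) by cluster length in bp on a log scale (horizontal axis) in the telomeric 2 Mb (solid lines) and in the interior (dashed lines) of 2L, 3L, 3R and X together, with 1 panel per list. The series-wide lines part, with medians of 1603 and 1435 bp, and nearly coincide in replicate 1 (1521 and 1520 bp) and replicate 2 (1479 and 1485 bp).

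Scores changed little between the telomeric windows and the interior. The score is the authors' own value per cluster on a log2 scale, and what it is relative to is not stated in the files. Series-wide median scores were 0.41 against 0.40 on 2L, 0.40 against 0.41 on 3L, 0.41 against 0.41 on 3R and 0.48 against 0.47 on X. The differences of the medians lay between -0.0023 and 0.0072 by arm in the series-wide list. In the replicates they averaged 0.015 ± 0.0061 on 2L, 0.0097 ± 0.0006 on 3L, 0.0047 ± 0.0059 on 3R and -0.0040 ± 0.020 on X (SD, n = 2 each). Over the 4 arms together the medians differed by 0.012 in replicate 1, 0.033 in replicate 2 and 0.0087 series-wide. X, where scores are high, made up 21.6% of window and 18.7% of interior clusters series-wide. In replicate 1 its shares were 24.7% and 16.3%, in replicate 2 they were 26.7% and 18.0%, and the part of this mix in the joint difference was not tested.

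The lowest step median lay within the outer 300 kb on 2L, 3R and X, and on 3L in the innermost step, at 0.37. On 2L and 3L all 5 outermost steps had a series-wide median score below that of the interior, with 0.37 to 0.39 on 2L and 0.37 to 0.40 on 3L. On X 4 of the 5 and on 3R 3 of the 5 were below. The highest step medians were 0.44 on 2L at 1000 to 1100 kb, 0.46 on 3L at 1400 to 1500 kb, 0.43 on 3R at 1700 to 1800 kb and 0.53 on X at 1600 to 1700 kb. By arm, the median score of the outer 500 kb and of the next 500 kb was 0.38 and 0.43 on 2L, 0.39 and 0.41 on 3L, 0.41 and 0.41 on 3R, and 0.46 and 0.48 on X. Over single clusters the rank correlation of score with distance was between 0.070 and 0.127 by arm in the series-wide list, and 0.51 for the 60 clusters of X in replicate 2 against 0.12 for the 91 in replicate 1.

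**Figure D5:**
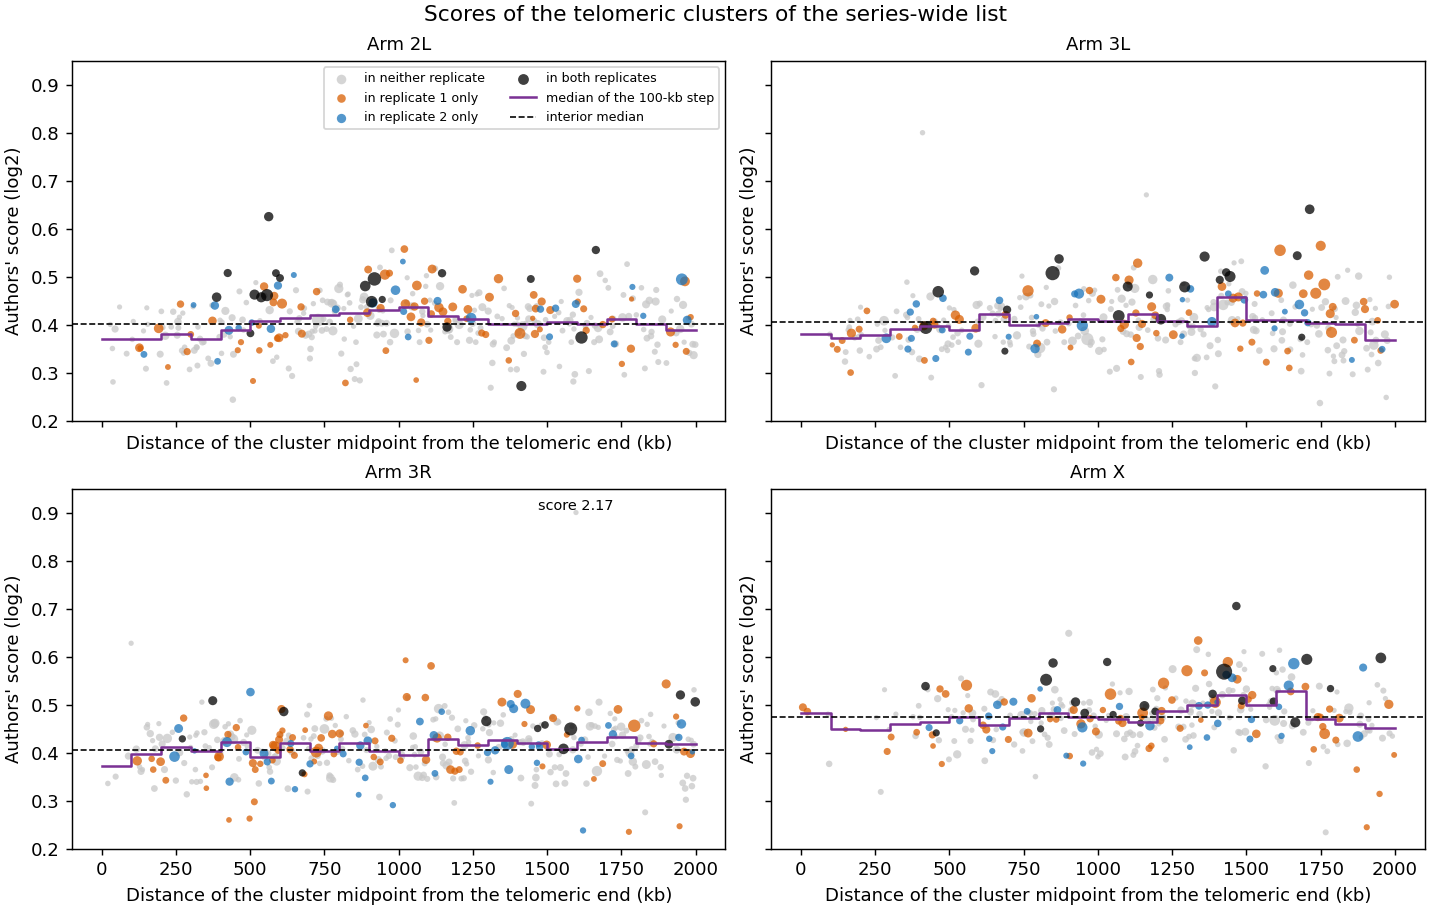
Authors' log2 score (vertical axis) of each series-wide cluster by the distance of its midpoint from the telomeric end in kb (horizontal axis), with point area proportional to length and colour for overlap with the replicates. The purple line is the median of each 100-kb step, the dashed line the interior median, and 1 cluster of 3R with a score of 2.17 is drawn at the upper limit. The step medians of 2L and 3L lie below the interior median over the first 500 kb, and clusters found in both replicates lie mostly above it.

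Clusters found in both replicates were more frequent in the telomeric windows than in the interior. Of the 1471 series-wide clusters 72 overlapped a cluster of both replicates by at least 1 bp, or 4.89% (exact 95% interval 3.85 to 6.12), against 338 of 12201 or 2.77% (2.49 to 3.08) in the interior. A further 291 overlapped replicate 1 alone, 141 overlapped replicate 2 alone, and 967 (65.7%, interval 63.2 to 68.2) overlapped neither, against 73.0% in the interior (72.2 to 73.8). The name of the series-wide list marks it as a replicate set, so it is not independent of the lists it is compared with here. Overlap also becomes more frequent where clusters are dense or long, and series-wide clusters were longer in the windows (median 1603 bp) than in the interior (1435 bp). The parts of density and length in this difference were not tested. With an overlap of 50% of both clusters required, the window share was 2.31%. By arm the share in both replicates was 6.94% on X, 5.22% on 3L, 4.91% on 2L and 2.98% on 3R, and on 3R it was near the 2.96% of that arm's interior.

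Between the replicates, 66 of the 368 window clusters of replicate 1 overlapped one of replicate 2, or 17.9% (14.2 to 22.2), against 12.9% (11.6 to 14.3) in the interior. Of the 225 of replicate 2, 65 overlapped replicate 1, or 28.9% (23.1 to 35.3), against 22.0% (19.9 to 24.3). In both cases the intervals of window and interior overlap. On 3R the shares were 11% and 16.4%, below the 13.3% and 22.0% of its interior, and on X they were 22.0% and 33.3% against 11.9% and 18.5%. The 72 clusters of both replicates were long, with a median of 3155 bp, against 1355 bp for those in neither, and their median score was 0.49 against 0.42. In the interior the medians of length were likewise 2659 bp in both and 1297 bp in neither, and longer clusters meet an overlap of 1 bp more easily. In the outer 500 kb 8 of 248 series-wide clusters overlapped both replicates, or 3.23% (1.4 to 6.26), and in the next 500 kb 23 of 404, or 5.69% (3.64 to 8.42).

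Among the highest-scored clusters, some were found in both replicates and others were short regions found in neither. The highest score on 2L, 0.63, belonged to 560664-563910, of 3247 bp, in the step range where both replicates had their maximum, with scores of 0.65 and 0.79 in replicates 1 and 2. On X it was 1464852-1467512, of 2661 bp, with 0.71 in the series-wide list and 0.79 in both replicates. The highest of 3L that overlapped both replicates was 1711384-1714828 (3445 bp), at 0.64, with 0.80 and 0.84 in the replicates. That of 3R was 25954798-25957954 (3157 bp), at 0.52, with 0.60 and 0.74. The score of 2.17 on 3R belonged to 26307622-26308644, of 1023 bp, and the highest on 3L, 0.80, to 408946-410032, of 1087 bp, and neither overlapped a cluster of a replicate. Of the 12 clusters with the 3 highest scores of each arm, 4 overlapped both replicates, 3 overlapped 1, and 5 overlapped neither.

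The longest clusters more often overlapped both replicates. An overlap of at least 1 bp is more likely for a longer cluster by construction, and the part of length was not tested. The longest of all was X 1420186-1429682, of 9497 bp and score 0.57, in the fullest step of that arm, which spanned 2 clusters of replicate 1 and 1 of replicate 2. On 3L the longest was 843736-851180 with 7445 bp, on 2L 914926-921626 with 6701 bp and on 3R 26322770-26329016 with 6247 bp, and each overlapped both replicates. Of the 12 clusters made up by the 3 longest of each arm, 7 overlapped both replicates, 3 overlapped 1, and 2 overlapped neither. Of the 12 that lay nearest the telomeres, 0 overlapped both, 4 overlapped 1, and 8 overlapped neither, beside the 4.89% in both and 65.7% in neither among all 1471, and 12 clusters are too few to show a departure from the window as a whole.

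The last series-wide clusters inside it, with midpoints 1998.5 kb from the end on 2L, 1999 kb on 3L, 1998.5 kb on 3R and 1997 kb on X, scored 0.36, 0.44, 0.51 and 0.40. The first outside, at 2001, 2002, 2003 and 2003 kb, scored 0.40, 0.48, 0.38 and 0.46.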

How the data were processed

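Positions are on FlyBase release 5, per the file headers. The deposited lists give a start, an end and a score for each enriched region, and the authors named Bowtie 0.12.7 in the submitters' processing notes. For the caller, its threshold and the making of the series-wide list, details were not given in the sources used here. The deposited scores were read as log2 values, because 99.7% of them series-wide, 99.1% for replicate 1 and 100% for replicate 2 differed from the commonest score by log2 of a fraction with whole terms (denominators to 1000, tolerance 1e-10).

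Clusters were placed by midpoint. Arm 2R, chromosome 4 and heterochromatin sequences were not used. Density ratios have exact conditional binomial intervals at 95%. They were tested on simulated data with independent, evenly scattered clusters, as the intervals assume. That test therefore does not cover the uneven counts of the real steps. Shares have Clopper-Pearson intervals. A ratio counts as passed where its interval excludes 1. Lengths, scores and rank correlations were described without a test. Covered bases are those inside a zone. Depth is unknown, so the number of clusters sets the precision. Named clusters are, for each arm, the 3 nearest the telomere, the 3 highest-scored, the 3 longest and the 3 highest-scored in both replicates, with the fullest and emptiest steps and the longest empty stretch. Members, windows and rules were chosen with earlier results of these data known. Alternatives comprised another interior, a window of 1 Mb, the upper 50% by score, neighbours within 1000 bp merged, a minimum length, clusters wholly inside a window, covered bases, other steps, 50% overlap and each replicate alone. Genes were named from the RefSeq table of release 6 by order only. Tools were pandas 2.3.3, numpy 2.4.6 and scipy 1.17.1 in Python 3.11.15, with figures by matplotlib 3.10.9.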

Additional observations from a re-analysis of the deposited data

How the results depend on the processing

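Of 197 alternatives to 24 results, 117 kept direction and side of the threshold, moved within the spread or the main interval, or had intervals that include 1 in both settings. In the last case the direction could turn. With the zone 2 to 4 Mb from the telomere as interior, the density ratio was 1.11 on 2L, 1.07 on 3L, 0.964 on 3R (turned) and 1.08 for the 4 arms together, with intervals that include 1. On X it was 1.22 (1.03 to 1.44). The length differences against that zone were 5.00 bp on 2L, 140 bp on 3L, 56.0 bp on 3R, 59.0 bp on X and 68.0 bp together. With a window of 1 Mb the density ratio was 1.05 on 3L, 1.11 on 3R and 0.970 on X (turned), with intervals that include 1, and the length differences were 59.0, 26.0, 119, 122 and 93.0 bp on 2L, 3L, 3R, X and together. That window gives the poor tip more weight by construction. The upper 50% by score gave a density ratio of 1.19 on 3L, with an interval that includes 1, and length differences of 458, 533, 224, 300 and 342 bp in the same order. Neighbours merged gave density ratios of 1.12 on 3L, 1.11 on 3R and 1.12 on X, with intervals that include 1, and length differences of 246, 193, 317 and 241 bp on 2L, 3R, X and together. The minimum length gave 134, 98.0, 103 and 128 bp on 2L, 3L, 3R and together. Covered bases gave ratios of 1.49 on 2L, 1.41 on 3L, 1.48 on X and 1.39 together. Score differences, never tested, were 0.0107 on 2L with the minimum length, and on 3L -0.0034 with the centromere end in the interior, -0.0048 against 2 to 4 Mb, -0.0108 with 1 Mb, -0.0012 merged, 0.0063 (turned) for the upper 50% and 0.00078 (turned) with the minimum length. On 3R they were -0.0015 (turned) against 2 to 4 Mb and 0.00096 with 1 Mb. Their sign also turned, within the spread between replicates, to -0.0022 for the 4 arms together and -0.00047 on X with 1 Mb, and to -0.0037 on X for the upper 50%. Each replicate alone gave density ratios between 1.59 and 1.69 (2L), 1.5 and 1.65 (3L), 1.31 and 1.47 (3R), 2.17 and 2.22 (X) and 1.59 and 1.67 together, length differences of 44.5 to 60, 8.50 to 67.0, -53.5 to -40.5 (turned), -64.5 to -3.50 (turned) and -6.00 (turned) to 1.00 bp in the same order, and score differences of 0.0107 to 0.0193, 0.0093 to 0.0101 (turned), 0.00053 to 0.0088, -0.0181 (turned in replicate 2) to 0.0102 and 0.0118 to 0.0331. The rank correlation of distance with clusters per step was -0.020 (turned) on 2L and 0.484 on X without the outermost step, 0.268 on 2L and 0.604 on 3R for the upper 50%, 0.410 on 3L with steps of 50 kb and 0.781 with 200 kb. Each replicate alone gave rank correlations of 0.040 to 0.194 on 2L, 0.157 to 0.349 on 3L, -0.027 (turned) to 0.265 on 3R and 0.442 to 0.532 on X. With overlap of 50% of both clusters, 2.31% of series-wide window clusters lay in both replicates, and 12.0% and 19.6% of those of replicates 1 and 2 in the other; with the minimum length 7.14% lay in both. The factor of X over the other arms, 1.04 in the series-wide list, was 1.44 to 1.47 in each replicate alone and passed there. It was 0.856 (turned, 0.692 to 1.05) with a window of 1 Mb and 0.989 (turned, 0.842 to 1.16) with neighbours merged. The low density of the outermost 100 kb of the 4 arms together held in each alternative run for it. Alternatives to these last 2 results were added after the data were examined. The causes of these changes were not tested, also where a construction is named. No paired analysis was possible because the input libraries enter only through the cluster lists of their replicates. In replicate 2, steps of 0 to 10 clusters limit what a single step can show.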

Other observations

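The step from 1400 to 1500 kb was the fullest of its window on 2L, 3L and X in the series-wide list, with 28, 25 and 25 clusters, and held 25 on 3R. Its mean over the arms was 25.8 ± 1.5 (SD, n = 4 arms), against 18.0 ± 0.82 in the next step inward. The means of that step were 8.00 ± 1.15 in replicate 1, level with the step from 1100 to 1200 kb as the highest of the 20, and 5.50 ± 1.91 in replicate 2, the highest of the 20. The step was singled out after its values were seen.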
